A study of Homo sapiens with 22 samples.

Results

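The region described here is the stretch of human chromosome 2 from 38 to 72 Mb (build hg38), on the short arm. It was chosen by its MTBP scores, since several of the highest-scored MTBP peaks of the study lay in it. Its members are all features of the 3 deposited lists whose midpoint falls inside. They are 675 of 29858 MTBP peaks, 916 of 62504 H3K4me2 peaks and 21 of 2473 initiation zones, or 1612 of 94835 features in all. The MTBP scores that led to the choice, and the WT and deltaC signals of the same peaks, are given as a description and were not tested. The rest of chromosome 2, with 208.2 Mb against the 34 Mb of the stretch, is the main comparison.

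The cells were DLD-1, an established human colorectal adenocarcinoma line, with an auxin degron tag (mAID) on MTBP in every group. CUT&RUN, which releases the DNA next to an antibody's target, used a FLAG antibody in MTBP-mAID/MTBP-deltaC-FLAG cells (deltaC, 3 libraries), in MTBP-mAID/MTBP-WT-FLAG cells (WT, 3 libraries) and in MTBP-mAID/MTBP-mAID cells as the control (3 libraries). MTBP-mAID/MTBP-WT-FLAG cells also gave 2 libraries with an H3K4me2 antibody and 2 with IgG. In EdU-seq, newly made DNA was labelled with 10 µM EdU for 3 hr in deltaC cells released into S phase, in WT cells released into S phase and in WT cells arrested in G1 (3 libraries each). The labels do not say whether each line was 1 clone, or which residues deltaC lacks. Each list holds 1 value per peak or zone, for a line or for the series, so there is no spread between libraries, and no difference below could be tested.

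MTBP and its partner Treslin act at the step where CDC45 and GINS join the loaded MCM helicase and replication forks start. H3K4me2 is a histone mark of active promoters and enhancers. Initiation zones are stretches in which EdU-labelled DNA of early S phase was found. Published karyotypes of DLD-1 describe a duplication within the short arm of chromosome 2. The lists hold no measure of copy number, so its part in any value below was not tested.

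The labelled tissue was checked by H3K4me2 within 1 kb of either end of marker genes. All 7 markers of colorectal epithelium had it (EPCAM, CDH1, VIL1, CDX2, KRT8, KRT18 and KRT20), 5 of them had an MTBP peak and 6 had an end in a zone, where 64.3%, 42.8% and 23.8% of all protein-coding genes did. Of the markers of other types, the hepatocyte gene ALB, the leukocyte gene PTPRC, the neuronal gene SYT1 and the muscle genes MYH2 and DES had no H3K4me2. APOA1, CD3E and SNAP25 had it. CD3E and SNAP25 also had an MTBP peak, APOA1 had an end in a zone, and the rest of these markers had neither.

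The promoters of 4 genes of the stretch are shown because, among genes with a RefSeq promoter entry, their windows lay under the highest-scored MTBP peaks. They are PPM1B, which encodes a serine/threonine phosphatase (chr2:44168625-44168924, plus strand), PAIP2B, a regulator of poly(A)-binding protein (chr2:71227054-71227353, minus strand), MXD1, a MYC antagonist (chr2:69914859-69915158, plus strand), and NAGK, N-acetylglucosamine kinase (chr2:71068046-71068345, plus strand). Sequences are RefSeq's for GRCh38.p14, from 250 bases before to 50 after the start. Capitals mark GGGCGG, the GC box, ATTGG, the inverted CCAAT box, and CCGGAAG, an ETS-type site, each searched on both strands.
PPM1B: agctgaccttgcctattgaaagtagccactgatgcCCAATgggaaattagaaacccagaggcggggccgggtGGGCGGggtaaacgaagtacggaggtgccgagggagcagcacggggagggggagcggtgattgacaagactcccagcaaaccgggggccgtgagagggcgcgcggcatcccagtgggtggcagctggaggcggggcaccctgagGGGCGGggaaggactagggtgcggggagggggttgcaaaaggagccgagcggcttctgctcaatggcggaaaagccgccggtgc
PAIP2B: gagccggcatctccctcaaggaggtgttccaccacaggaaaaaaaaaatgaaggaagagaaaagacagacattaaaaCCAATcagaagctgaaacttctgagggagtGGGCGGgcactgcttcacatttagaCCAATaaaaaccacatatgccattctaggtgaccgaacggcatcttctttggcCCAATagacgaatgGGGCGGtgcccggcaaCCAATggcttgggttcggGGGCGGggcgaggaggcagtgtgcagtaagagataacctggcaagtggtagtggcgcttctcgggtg
MXD1: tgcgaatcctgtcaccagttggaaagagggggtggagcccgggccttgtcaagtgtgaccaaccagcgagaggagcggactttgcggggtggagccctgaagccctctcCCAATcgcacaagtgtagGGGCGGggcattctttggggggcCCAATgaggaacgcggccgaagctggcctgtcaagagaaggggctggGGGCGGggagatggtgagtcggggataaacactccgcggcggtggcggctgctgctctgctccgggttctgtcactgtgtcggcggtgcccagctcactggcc
NAGK: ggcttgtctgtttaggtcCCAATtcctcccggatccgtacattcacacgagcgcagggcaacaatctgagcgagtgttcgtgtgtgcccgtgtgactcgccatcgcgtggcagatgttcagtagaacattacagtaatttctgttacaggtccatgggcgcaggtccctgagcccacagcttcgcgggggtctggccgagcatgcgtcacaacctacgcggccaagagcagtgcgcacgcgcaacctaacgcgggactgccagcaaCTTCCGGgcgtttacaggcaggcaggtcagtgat
PPM1B carried 2 GC boxes and 1 CCAAT box, PAIP2B 3 and 4, and MXD1 2 and 2, while NAGK had 1 CCAAT box and 1 ETS-type match. The MTBP peaks over these windows scored 2336, 1467, 1007 and 902. A match is only a run of letters. Of 163 protein-coding genes of the stretch, 134 had a promoter entry, and 94 of these windows overlapped an MTBP peak. GGGCGG was in 77.7% of those 94, against 37.5% of the other 40 windows of the stretch, 72.01% of windows with MTBP elsewhere on chromosome 2 and 58.5% of all 15811 windows. ATTGG was in 43.6% of the 94, 37.0% of windows with MTBP on the rest of chromosome 2 and 36.3% of all windows. In the same order, CCGGAAG was in 22.3%, 21.0% and 14.2%, and TATAAA in 3.19%, 3.84% and 9.64%. TGACTCA was in 0, 2.03% and 3.67%. A quadruplex pattern (at least 3 G in each of 4 runs, parted by 1 to 7 bases) was in 38.3%, 31.6% and 30.4%. Median GC content was 65.0% in the 94 windows and 66.0% in those with MTBP on the rest of chromosome 2, so the windows with MTBP had like base composition in both places. It was lower, 57.2%, in the 40 windows of the stretch without MTBP, so the GGGCGG shares of 77.7% and 37.5% are not at like GC content.

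MTBP peaks lay more densely in the stretch, and their scores reached higher. There were 19.9 MTBP peaks per Mb in the stretch and 9.70 per Mb on the rest of chromosome 2, a ratio of 2.05. Other autosomes held 10.2 per Mb and X 1.65. The authors' MTBP score, of unstated scale, had a median of 266 in the stretch and 201 on the rest of chromosome 2 (ratio 1.32), and the medians of the other autosomes ran from 180 to 211. At the lower end the sets were closer, with a 10th percentile of 112 against 103. At the upper end they parted, with a 90th percentile of 659 against 446 and a highest score of 2665 against 1115.

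The signal of each line moved the same way. The deltaC signal had a median of 279 in the stretch and 214 on the rest of chromosome 2 (ratio 1.31), and the WT signal a median of 480 and 383 (ratio 1.25). Both ratios were about 1.55 at the 90th percentile. The top decile of the list by score began at 446 and, ties included, took in 10.7% of all peaks. It held 184 of the 675 peaks of the stretch (27.3%) and 10.7% of those on the rest of chromosome 2. The top decile by deltaC signal held 28.7% of the stretch's peaks and 11.2% of the rest's (10.0% of all), and that by WT signal 27.3% and 11.3% (10.0% of all). The stretch supplied 5 of the 10 highest-scored peaks of the list, 11 of the highest 30, 21 of the highest 100 and 74 of the highest 1000, while holding 2.26% of the peaks.

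**Figure D1:**
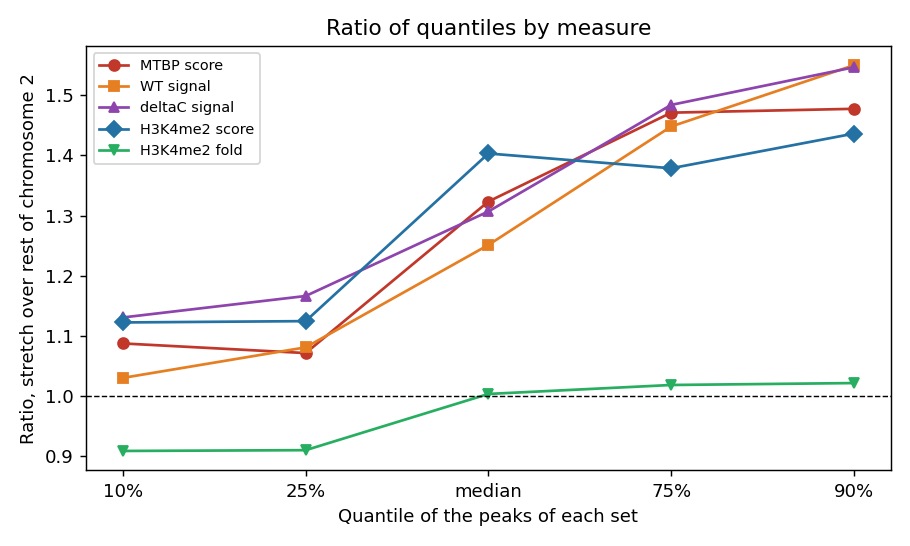
Ratio of each quantile in the stretch to the same quantile on the rest of chromosome 2, with the quantile on the x axis and 1 line per measure. MTBP score, WT signal, deltaC signal and H3K4me2 score have medians 1.25 to 1.40 times those elsewhere, while the H3K4me2 fold stays near 1 (dashed line).

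Peaks of the stretch were also wider, and this moved with the scores. The median width was 1202 bp in the stretch and 952 bp on the rest of chromosome 2. The widest quintile of all peaks, 1391 bp and more, took 38.1% of the stretch's peaks and 20.4% of the rest's. Within that quintile the median score was 396 against 277, the median deltaC signal 493 against 376 and the median WT signal 888 against 711. In the narrowest quintile the median score was 140 in both, and the median WT signal was 185 in the stretch and 207 on the rest. Averaged over the 5 width classes, the ratio of medians was 1.12 for score, 1.08 for deltaC signal and 1.00 for WT signal. Width comes from the same signal, so peaks of higher signal can fall into a wider class, and these values do not separate width from signal.

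By the authors' classes, the ratio of median scores was 1.62 for enhancer peaks, 1.52 for promoter peaks and 1.17 for the others. In both signals promoter peaks had the largest ratio. The ratio of enhancer peaks was above that of the others in WT signal but not in deltaC signal. Enhancer-class peaks had a median score of 396 in the stretch and 244 on the rest of chromosome 2 (107 and 302 peaks). For promoter-class peaks it was 289 and 190 (176 and 623 peaks), and for the others 222 and 190 (392 and 1095 peaks). The ratio of median deltaC signals was 1.505 for promoter-class peaks, 1.23 for enhancer-class peaks and 1.24 for the others, and that of WT signals 1.41, 1.33 and 1.17. The scores are among the values that chose the stretch. The mix of classes differed little, with 26.1% promoter-class peaks in the stretch and 30.8% elsewhere on chromosome 2, and 15.9% and 15.0% of the enhancer class. By the authors' distances, 53.2% of the stretch's peaks and 49.9% of the rest's were more than 10 kb from a start site. Intron annotations covered 31.0% of peaks in the stretch and 25.5% on the rest, and long terminal repeats 7.26% and 7.23%.

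The running numbers in the peak names have gaps. Numbers of the WT-named MTBP peaks follow position along the chromosome. In the stretch, 660 peaks are listed out of 2241 numbers spanned (29.5%), which is 65.9 numbers per Mb. On the rest of chromosome 2, 1935 of 4318 numbers are listed (44.8%), or 20.7 per Mb. The numbers thus lay 3.18 times as densely in the stretch, and the listed peaks 2.09 times. The H3K4me2 names have gaps as well, with 80.9% of numbers listed in the stretch and 78.3% on the rest. What the skipped numbers stood for is not given in the sources used here.

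The 10 highest-scored peaks of the stretch were spread over its whole length, and 5 of them were of the enhancer class. The highest, intergenic and 80372 bp from B3GNT2, a glycosyltransferase gene, scored 2665 with a deltaC signal of 1727 and a WT signal of 2992 (chr2:62303783-62307966). The peak at the promoter of PPM1B scored 2336, with signals of 1362 in deltaC and 3116 in WT (chr2:44167423-44170108). An intronic peak of a non-coding transcript, 83763 bp from ATL2, an endoplasmic reticulum GTPase gene, scored 2210 (chr2:38461642-38463180). These were also the 3 highest scores of the whole list. Next came an exon peak in FANCL, a ubiquitin ligase gene of the Fanconi anaemia pathway, with 1483 (chr2:58203245-58205114), and the promoter of PAIP2B with 1467 (chr2:71226564-71227909). A peak on an MLT1K repeat within STPG4 scored 1417 (chr2:47108332-47109291). The promoter of CYP1B1, a cytochrome P450 gene, scored 1369 and had the highest WT signal of the 10, 3161, beside a deltaC signal of 1533 (chr2:38075830-38078459). The last 3 lay in ARHGAP25, a Rac GTPase-activating gene (1336), 116796 bp from PKDCC, a secreted kinase gene (1320), and 42816 bp from TGFA, an EGF receptor ligand gene (1320). All 10 overlapped H3K4me2, at a fold of 19.4 to 33.99, and 4 lay in an initiation zone.

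At the other end, the 5 lowest-scored peaks scored 54 to 62. They lay 92445 bp from TSPYL6 (within ACYP2), 5899 bp from CCDC88A, 29578 bp from CYP1B1, 124047 bp from LOC124907776 and 93118 bp from CALM2. Of these, 3 overlapped H3K4me2 and 3 lay in a zone, among them the CALM2 peak, which is inside the highest-scored zone of the list. A zone of high score thus held MTBP peaks of very different score.

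Most peaks had a lower signal in deltaC than in WT cells, in the stretch as elsewhere, on the authors' scaling of the lines, which is not stated. By their names, most listed peaks were WT peaks. Names for deltaC were at 2.22% of the stretch's peaks, 4.21% of the rest's and 2.87% of those on other autosomes. The lower deltaC signal cannot be told apart from this make-up of the list. The log2 ratio of deltaC over WT signal, with 1 added to each, had a median of -0.82 in the stretch and -0.90 on the rest of chromosome 2. The difference, 0.08, is small beside the range within the stretch, whose 10th and 90th percentiles were -1.60 and -0.19. A ratio above 0 was found at 5.48% of the stretch's peaks and 5.59% of the rest's (4.52% of all), and one below -2 at 4.74% and 6.04% (6.72% of all).

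Among peaks with a WT signal of at least the list's median, the 5 with the highest ratio ran from 0.09 to 0.35. The highest was 106374 bp from CYP1B1, with a deltaC signal of 513 and a WT signal of 401 (chr2:38181752-38183070). The others lay near TGFA and CLHC1 and in introns of BCL11A, a zinc finger repressor gene, and ANTXR1, an anthrax toxin receptor gene. At the lowest ratio, the promoter of EML4, a microtubule-binding protein gene, was listed at a deltaC signal of 0 against a WT signal of 377 (chr2:42168594-42169985). The next 4 had ratios of -2.64 to -2.23 and lay near VAX2, SPTBN1 and CALM2 and in an intron of USP34. The EML4 peak overlapped H3K4me2 at a fold of 41.7 and lay in a zone.

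The higher scores and signals ran over most of the stretch. Only bins of 2 Mb with at least 10 MTBP peaks were counted, against the median score of the rest of chromosome 2, 201. The median score was at or above 201 in 14 of 15 bins of the stretch and 33 of 64 bins of the rest. The median WT signal was above 383 in 15 of 15 and 34 of 64 bins, and the median deltaC signal above 214 in 15 of 15 and 38 of 64. The 2 other bins of the stretch had fewer peaks and were mostly lower. The bin at 50 to 52 Mb (4 peaks) had medians of 148 for score, 158 for deltaC signal and 465 for WT signal, and that at 52 to 54 Mb (7 peaks) 160, 135 and 326. The median score of a bin ran from 190 to 446 in the stretch. The bin just below it, 36 to 38 Mb, had 233, and the bin just above, 72 to 74 Mb, had 190.

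The last 5 MTBP peaks below the lower edge scored 150 to 1068 and the first 5 above it 86 to 1369, all but 1 of them nearest to RMDN2. At the upper edge the last 5 peaks inside, beyond DYSF, a muscle membrane repair gene, scored 150 to 1099. The first 5 outside, near CYP26B1, a retinoic acid-degrading enzyme gene, and in EXOC6B, scored 95 to 300.

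**Figure D2:**
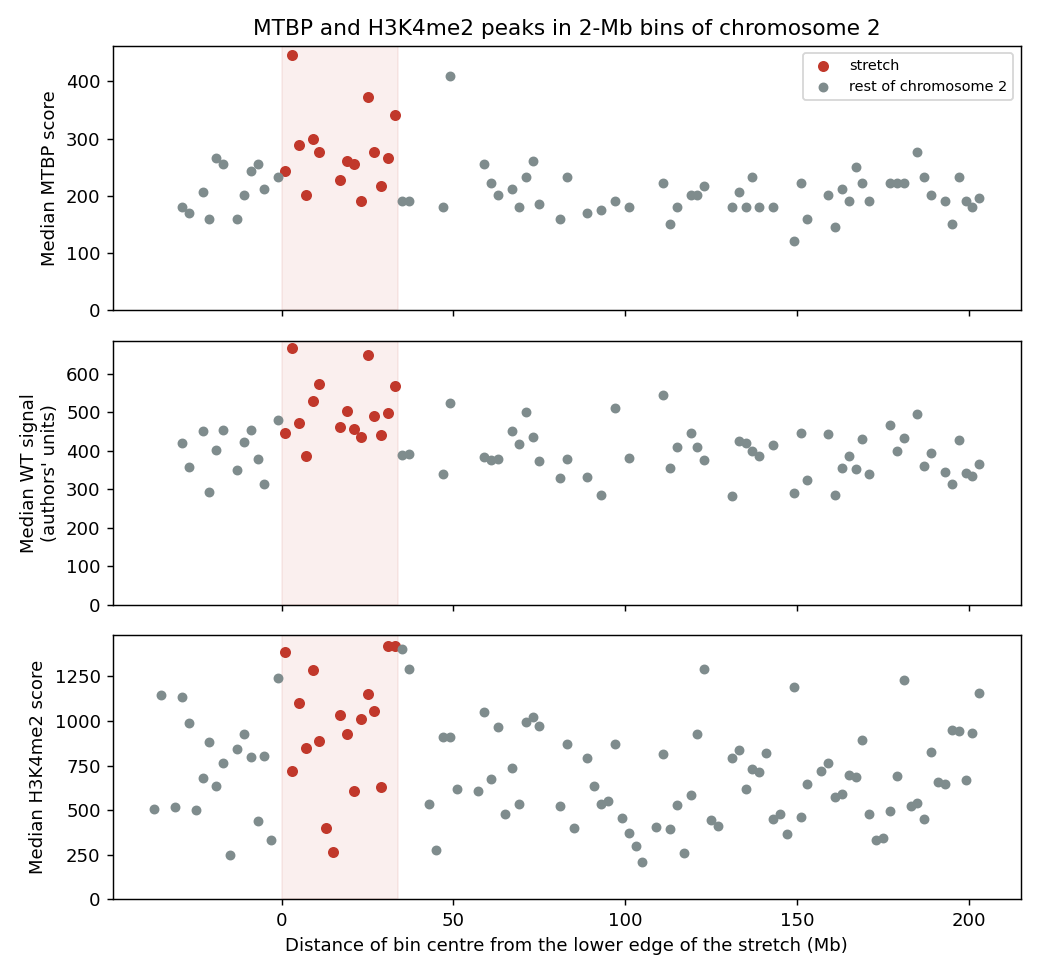
Medians in 2-Mb bins of chromosome 2 (y axes: MTBP score, WT signal and H3K4me2 score in the authors' units), against the distance of the bin centre from the stretch's lower edge in Mb (x axis). Red points are bins of the stretch, which is shaded, and grey points the rest. All 15 red points of WT signal lie above 383, while those of H3K4me2 score run from 267 to 1420.5.

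H3K4me2, measured with another antibody in the WT line, gave a further view of the same DNA. There were 26.9 H3K4me2 peaks per Mb in the stretch and 20.9 on the rest of chromosome 2 (ratio 1.29). Their fold enrichment had a median of 14.3 in both (ratio 1.00), and 11.6% and 10.6% were in the top decile by fold (10.0% of all). Their score, in contrast, had a median of 1019.5 in the stretch and 726.5 on the rest of chromosome 2 (ratio 1.40), above the 653 to 831 of the other autosomes. The top decile by score held 22.2% and 11.6% (10.0% of all). The score is 10 times the authors' −log10 q in this list, truncated, for 99.8% of peaks, so it measures significance, which by its construction grows with read number at a given fold. The median −log10 q was 102 in the stretch and 72.7 on the rest.

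Score and fold rise together from peak to peak, so the score was compared among peaks of like fold, a comparison added after the data had been seen. Each score was divided by the median score of peaks in the same decile of fold on the rest of chromosome 2, leaving out 30 to 38 Mb. This like-fold ratio had a median of 1.40 in the stretch (10th to 90th percentile 1.01 to 2.01) and 1.01 on the rest of chromosome 2. The medians of the other 21 autosomes lay between 0.94 and 1.01, and X had 0.72. In every decile of fold the stretch was above the rest, by 1.25 to 1.59, and X was below it, at 0.68 to 0.81. In the top decile of fold, the median score was 4315.5 in the stretch, 1977 on X and 2907 on the rest of chromosome 2.

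**Figure D3:**
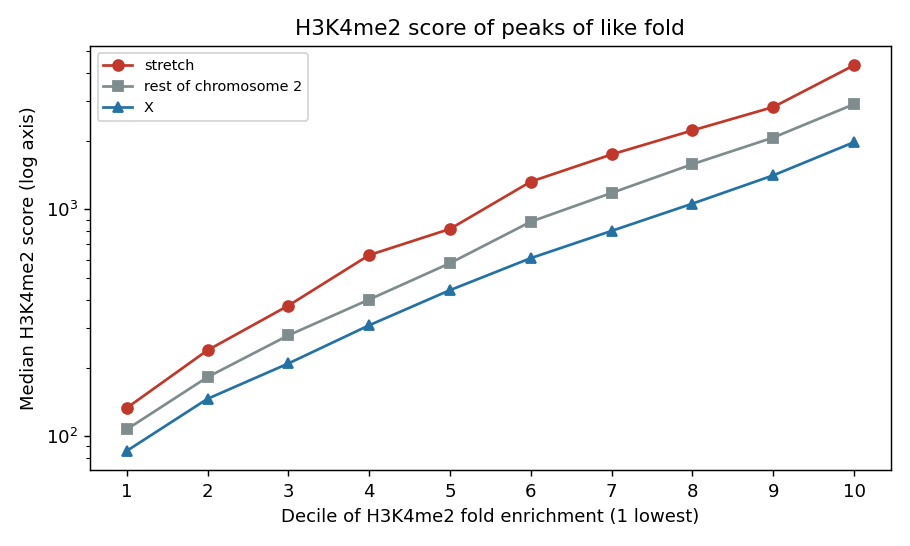
Median H3K4me2 score (y axis, log scale) of peaks in each decile of fold enrichment (x axis), for the stretch, the rest of chromosome 2 and X. The stretch lies above the rest of chromosome 2 and X below it in all 10 deciles.

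Along chromosome 2 the like-fold ratio was raised over most of the stretch and in part of the DNA just below it. In bins of 2 Mb with at least 10 H3K4me2 peaks, it was at or above 1.2 in 16 of 17 bins of the stretch and in 2 of 93 bins of the rest. Those 2 lay just below the stretch, at 32 to 34 and 36 to 38 Mb, and the bin between them, 34 to 36 Mb, had 1.18 (12 peaks). The bins of the stretch ran from 1.12, at 66 to 68 Mb, to 1.46. In bins of 0.5 Mb the median ratio was 0.99 at 31 to 31.5 Mb (11 peaks) and 1.48 at 31.5 to 32 Mb (9 peaks). At the other end it was 1.35 at 71.5 to 72 Mb (13 peaks) and 0.97 at 72 to 72.5 Mb (8 peaks). The lower step was taken as the largest rise between neighbouring bins from 29.5 to 40 Mb, and the upper as the largest fall from 69.5 to 75 Mb. Only bins of at least 8 peaks were used. Both places were thus picked from these same ratios, on few peaks, and the values on either side are a description. The upper step fell at the edge of the stretch and the lower one below it. Peaks from 31.5 to 38 Mb had a median of 1.38 (144 peaks), close to that of the stretch. Below 31.5 Mb it was 1.01 (783 peaks) and above 72 Mb 1.00 (3423 peaks).

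**Figure D4:**
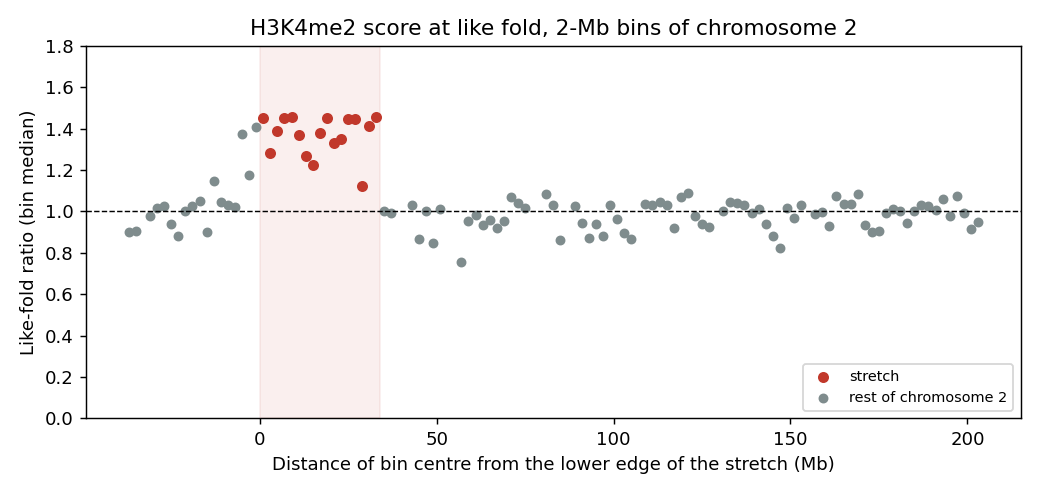
Median like-fold ratio of H3K4me2 peaks (score over that of peaks of the same fold, y axis) in 2-Mb bins of chromosome 2, against the distance of the bin centre from the stretch's lower edge in Mb (x axis). Bins of the stretch (red, shaded) lie between 1.12 and 1.46, the rest (grey) mostly near 1, and 2 grey bins just below the stretch reach 1.37 and 1.41.

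The 10 H3K4me2 peaks of the stretch with the highest fold had folds of 54.6 to 73.0, and 8 of them were centred within 4310 bp of a gene end. The first was at AFTPH, a membrane trafficking gene, with a fold of 73.0 and a score of 6853 (chr2:64522549-64526186). It ranked 38th in the list by fold and 16th by score. Peaks nearest to ends of TEX261, PPM1B, RTN4, PPP4R3B, SPRED2, SRBD1, FANCL, XPO1 and SOS1 followed. Farthest from a gene end were the RTN4 peak, 77794 bp away within RTN4, and the FANCL peak, 112269 bp away within VRK2. Each of the 10 ranked higher in the list by score than by fold. Each overlapped 1 or 2 MTBP peaks, with best scores of 190 to 932.

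H3K4me2 peaks of the stretch more often had an MTBP peak. The share was 65.0% (595 of 916) in the stretch and 42.3% (1838 of 4350) on the rest of chromosome 2, against 43.6% of all. The gap was present at every strength of H3K4me2. In the lowest decile of fold 20.2% and 3.67% had MTBP, in the 6th 86.4% and 44.7%, and in the highest 96.2% and 85.2%. H3K4me2 peaks with MTBP had a lower median fold in the stretch than on the rest of chromosome 2 (ratio 0.85), and so did those without MTBP (ratio 0.75), although the medians of all H3K4me2 peaks were alike. In the other direction, 97.8% of MTBP peaks in the stretch and 99.4% on the rest overlapped H3K4me2.

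Initiation zones scored higher in the stretch. There were 0.618 per Mb in the stretch and 0.711 on the rest of chromosome 2 (ratio 0.869), with median scores of 1359 and 648 (ratio 2.10). Both ratios depended on which zones were taken. Among zones in the upper part of the list by score, from its median on, the density ratio was 1.37, in the other direction, and the score ratio 1.38. The highest was 10226 in the stretch and 4480 on the rest. The top decile of zones by score held 4 of the 21 (19.0%) and 7 of the other 148 of chromosome 2 (4.73%), against 10.0% of all. All 21 zones held MTBP, against 81.8% on the rest of chromosome 2 and 81.8% of all. Of the MTBP peaks, 18.4% in the stretch and 19.4% on the rest lay in a zone (23.0% of all).

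Wider zones score higher in this list, so zones were also set side by side within tertiles of width. In the narrowest tertile the median score was 516 in the stretch (6 zones) and 186 on the rest of chromosome 2 (53 zones). In the middle tertile it was 924 (6 zones) and 769 (58 zones), and in the widest 2092 (9 zones) and 1686 (37 zones). The stretch was higher in each, on few zones.

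**Figure D5:**
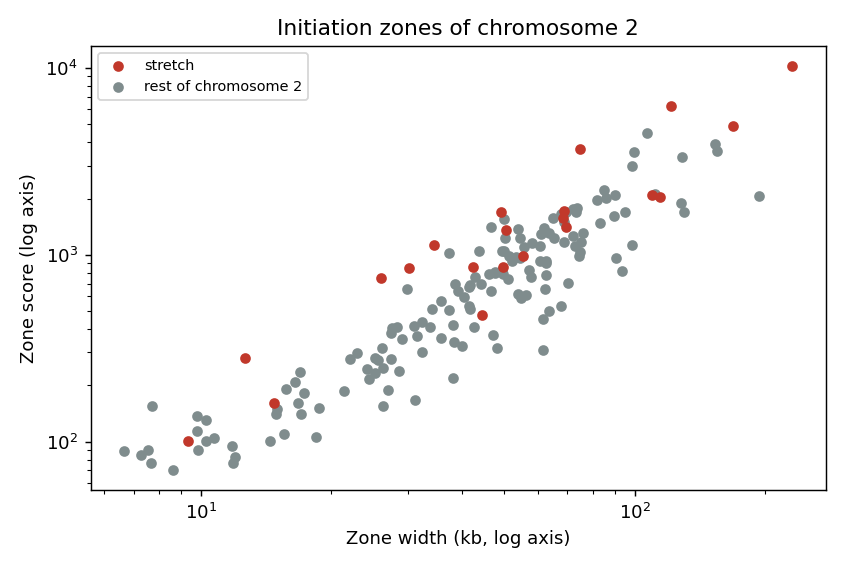
Score (y axis, log scale) against width in kb (x axis, log scale) of the zones of chromosome 2, 21 in the stretch (red) and 148 in the rest (grey). Scores increase with width in both sets, and the zone of highest score, 10226, is 231 kb wide and lies in the stretch.

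The zone of highest score, in the stretch and in the whole list, was 231 kb wide and held ends of CALM2, a calmodulin gene, and EPCAM, an epithelial adhesion gene (chr2:47161421-47391992). It held 20 MTBP peaks, the best of which scored 1304. The zone at AAK1 and ANXA4, an epithelial annexin gene, scored 6229 and held 12 MTBP peaks (chr2:69633997-69755290). That at ATL2 scored 4864 and held 12 as well, 1 of them the ATL2 peak above (chr2:38370371-38538433). These were also the 3 widest zones of the stretch. The 4th, with ends of ASPRV1, PCBP1 and C2orf42, scored 3684, and the 5th, at EML4, 2092. The next 5 held no gene end and scored 1405 to 2037, with 3 to 12 MTBP peaks each. The nearest genes were LOC124907776, ZFP36L2, an RNA-binding protein gene, SPRED2, PPM1B and ADD2. The other 11 zones, from 9.37 to 55.3 kb wide, scored 100 to 1359.

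At genes, MTBP was more frequent in the stretch, and gene ends in zones were less so. Of its 163 protein-coding genes, 118 had an MTBP peak within 1 kb of an end (72.4%), against 526 of 1091 on the rest of chromosome 2 (48.2%) and 42.8% of all. H3K4me2 was at 75.5% and 69.8% (64.3% of all), and an end lay in a zone at 11.04% and 17.0% (23.8% of all). Of genes with H3K4me2, 117 of 123 in the stretch had MTBP (95.1%), and 69.0% on the rest. The best MTBP score at a gene with a peak had a median of 318 in the stretch and 201 on the rest. The numbers of MTBP peaks within gene bodies were highest for ANXA4 (23 peaks), PRKCE, a protein kinase C gene (22), SPTBN1, a spectrin gene (16), and SPRED2 (14).

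Gene lists show which functions the stretch covers. The lists were chosen with earlier results known, and their counts stand beside 72.4% of all genes of the stretch with MTBP, 75.5% with H3K4me2 and 11.04% with an end in a zone. All 5 genes listed under genome maintenance, among them the nuclear export receptor gene XPO1, had both marks and none had an end in a zone. MSH6, a mismatch repair gene, had an MTBP score of 140, with signals of 547 in deltaC and 616 in WT. FANCL had 312, the ATR activator gene ETAA1 had 78, and XPO1 had 618. Scores thus differed widely among the genes of this list.

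All 7 genes of RAS, EGF receptor ligand and phosphatase signalling had MTBP, with a median score of 537. Apart from PPM1B, they ran from 201 at RHOQ to 645 at RAB1A, both small GTPase genes. SOS1, a RAS exchange factor gene, had 537, TGFA 550, SPRED2, an inhibitor of RAS signalling, 524, and the kinase gene MAP4K3 348. Of the NF-kB and innate signalling genes, REL had 160, the ubiquitin ligase gene PELI1 348 and COMMD1 131, while EIF2AK2 lay outside the stretch. All 5 genes of the ubiquitin system and protein handling had MTBP, from 103 at VPS54 to 511 at FBXO11, with USP34, CCT4 and PSME4 at 190, 131 and 160. CCT4 and COMMD1 share 1 peak between them.

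The genes without MTBP were in the remaining 3 lists. Of 8 transcription factor genes, EPAS1 (112), BCL11A (112), OTX1 (233) and MXD1 (1007) had a peak. SIX2, SIX3, MEIS1 and VAX2, developmental homeobox genes, had neither MTBP nor H3K4me2. Among 8 epithelial, gut and transport genes, EPCAM (300), ANXA4 (591), the cystine transporter gene SLC3A1 (312), DYNC2LI1 (396) and the gastrokine gene GKN2 (131) had MTBP. The sterol transporter genes ABCG5 and ABCG8 and the gastrokine gene GKN1 had neither mark. Of 9 genes listed for other tissues, SLC8A1 (409), STON1 (537), ASB3 (190) and C1D (201) had MTBP. The gonadotropin receptor genes LHCGR and FSHR, the platelet gene PLEK, and CLEC4F had neither mark. In all, 33 of the 45 listed genes in the stretch had MTBP, beside the 72.4% of all its genes, 33 had H3K4me2 and 3 had an end in a zone.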

How the data were processed

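The series has 22 libraries in 8 groups and 3 deposited lists. Per the submitters' processing notes, Trim Galore, Bowtie2, MACS2 and HOMER were used with build hg38. The sources used here give no versions or parameters, and pooling is not stated. The deposited MTBP list has, per peak, a score by the authors and a signal for each line. The zone list holds the authors' average peak score. The deposited H3K4me2 list has a score, a fold enrichment and a −log10 q per peak. Scores and signals are of unstated scale, library depth is unknown, and no counting error was computed. No per-sample column was left unused.

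Members were taken by midpoint, with pandas 2.3.3 and numpy 2.4.6. Peaks on Y (10 MTBP, 116 H3K4me2) were left out. Overlap meant at least 1 bp, genes came from RefSeq GRCh38.p14, and a gene had a peak where one lay within 1 kb of either end. The chromosome span was the largest coordinate in the lists or gene table. With no replicate values, medians, densities and shares were compared without a test. Named peaks, zones and genes were the highest and lowest by score, fold or ratio, those at the edges, and 7 gene lists. The members and lists were chosen with earlier results of these data known. Alternatives were the comparison set, the mean, shifted edges, peak class, width classes, stricter peaks and a pseudocount of 0.1. The code was tested on simulated lists. Values of 2 listed genes are not reported here.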

Additional observations from a re-analysis of the deposited data

How the results depend on the processing

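No paired analysis was possible because the lists hold no library values and no replicate numbers. Of 85 alternatives to 13 results, 59 stayed within the main value's 95% counting interval (1.5 times for the gene count, and as a further limit for ratios) and 26 moved further. The interval treats peaks as independent, which they are not, so it only sorts the values and tests nothing. The MTBP score ratio was 1.40 against all other chromosomes, 1.41 for means, 1.52 and 1.62 for promoter-class and enhancer-class peaks, and 1.12 within width classes. The WT signal ratio was 1.36, 1.41 and 1.00 for means, promoter-class peaks and width classes, and the deltaC signal ratio 1.41, 1.505 and 1.08, with 1.23 for enhancer-class peaks. The log2 deltaC/WT difference was 0.12 against all other chromosomes and for peaks of at least the median score, 0.032 for means and 0.037 for enhancer-class peaks. The H3K4me2 fold ratio, 1.00, has no direction of its own. It was 0.85 with MTBP only, 0.75 without, 0.94 to 1.03 under 8 others, and 1.40 with the authors' score in its place, and 1.40 for that score at like fold, an alternative added after the data had been seen. The share of MTBP peaks in zones differed by -5.00 points from all other chromosomes. The share of H3K4me2 peaks with MTBP differed by 27.9 points at 50% overlap. No zone is covered to 50% by 1 MTBP peak, so that alternative gave no value for zones. Among features of at least the median score, the density ratio was 2.53 for MTBP peaks, 1.49 for H3K4me2 peaks and 1.37 for zones, against 0.869 for all zones. The zone score ratio was then 1.38. The cause was not tested, except that like widths are part of the construction of the width classes.

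Every value comes from 1 list with no library spread, and library depth is unknown. Neighbouring peaks share their DNA and are not independent. The part of copy number, and of background in control libraries, in the values of the stretch was not tested. The stretch is 1 region, and anything shared by all of it cannot be told apart from its position. The zone comparison rests on 21 zones, and its width classes on 6 to 9. A lower edge at 31.5 Mb, where the like-fold ratio stepped, was not used to choose members, so the rest of chromosome 2 includes the DNA from there to 38 Mb. With 30 to 38 Mb left out of the rest, an unplanned alternative, the ratios were 1.34 for MTBP score, 1.27 for WT signal and 1.32 for deltaC signal.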

Other observations

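Among bins of 2 Mb with at least 10 H3K4me2 peaks, the like-fold ratio was also at or above 1.2 in 6 of 1107 on the other autosomes and in 0 of 50 on X. Of the 6, 4 lay on chromosome 11 below 10.0 Mb, where 327 peaks had a median ratio of 1.28, and their median MTBP scores were 196 to 255. The other 2 lay at 124.0 to 126.0 Mb of chromosome 7 (ratio 1.21, 13 peaks) and 82.0 to 84.0 Mb of chromosome 17 (ratio 1.23, 84 peaks).

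On X the scores ran the other way. The median MTBP score was 150 on X and 190 on the other autosomes, the median zone score 208 and 634, and 15.6% of H3K4me2 peaks on X had MTBP, against 44.1% on the other autosomes.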
